A study of Mus musculus with 4 samples.

Results

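The 10 genes described here are 7 matrix metalloproteinases (Mmp2, Mmp3, Mmp9, Mmp11, Mmp13, Mmp14 and Mmp19) and 3 tissue inhibitors of metalloproteinases (Timp1, Timp2 and Timp3), followed through mouse digit tissue after amputation. They were chosen by name from the gene list of the deposited matrices and make up 10 of its 32285 genes. No measured value entered the choice, although the list was drawn up with other results of these data known. All 4 samples came from wild-type FVB/NJ mice aged 8 weeks, labelled as pooled male and female. One was the homeostatic, unamputated second phalanx (P2) of the digit. The other 3 were fibrosing P2 digit tissue taken 12, 17 and 28 days after an amputation (dpa) through the middle of that bone, a level at which a mouse digit scars and does not regrow. Trypsin and collagenase I were used to free the cells, ACK buffer to remove erythrocytes and propidium iodide exclusion to sort living cells, which were profiled with 10x Chromium 3′ v3 chemistry. Each time point is 1 library, so no value has a biological replicate, and a difference between time points cannot be told apart from one between libraries.

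Matrix metalloproteinases are zinc-dependent enzymes that cut collagens, proteoglycans and other extracellular proteins. Most are secreted as inactive proenzymes and are switched on when the propeptide is removed, and TIMPs block the active enzymes by binding them, so a transcript level is not an enzyme activity. In bone and tendon, collagenase and gelatinases take part in the turnover of fibrillar collagen, and osteoclasts release several of these enzymes while resorbing bone.

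The genes for the collagenase Mmp13 and the stromelysin Mmp3 lie in the same cluster of MMP genes on chromosome 9, with 173308 bases between their starts. Their promoters are shown because both genes had their highest levels in the stroma, in only partly overlapping groups of cells. The 250 bases before each start, from RefSeq on GRCm38.p6 and on the plus strand, are chr9:7272264-7272513 for Mmp13 and chr9:7445572-7445821 for Mmp3. Capitals mark a match to the AP-1 letters TGANTCA and, in Mmp13, to the RUNX letters TGTGGTT read on the other strand.
Mmp13: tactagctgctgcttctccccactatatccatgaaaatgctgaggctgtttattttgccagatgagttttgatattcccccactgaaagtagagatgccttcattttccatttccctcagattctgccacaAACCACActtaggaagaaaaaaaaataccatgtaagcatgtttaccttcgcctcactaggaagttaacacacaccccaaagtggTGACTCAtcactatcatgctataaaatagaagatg
Mmp3: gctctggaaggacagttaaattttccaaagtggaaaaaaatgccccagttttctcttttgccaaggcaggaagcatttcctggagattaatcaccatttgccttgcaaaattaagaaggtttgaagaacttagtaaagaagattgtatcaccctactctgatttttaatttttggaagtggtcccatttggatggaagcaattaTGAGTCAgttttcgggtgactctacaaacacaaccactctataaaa

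Both promoters held the AP-1 letters close to the start, from base -35 in Mmp13 and from base -46 in Mmp3. Searched on both strands of windows of the same length, TGANTCA was found in 6.75% of 32851 promoters and TGTGGTT in 4.40%. The letters AGGAAG, which ETS factors can bind, stood at -109 and -62 in Mmp13 and at -183 in Mmp3, and in 29.5% of all promoters. The GC-box letters GGGCGG, present in 32.7% of promoters, were in the windows of Mmp11, Mmp14, Timp1, Timp2 and Timp3 and not in those of Mmp3 and Mmp13. TGANTCA had no match in those 5 other windows. Promoters were matched for 7 of the 10 genes, those of Mmp2, Mmp9 and Mmp19 not being among them. A match describes letters and is not evidence of binding.

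In the GENCODE M21 annotation of the same build, Mmp13 (ENSMUSG00000050578) spans chr9:7272514-7283331 and Mmp3 (ENSMUSG00000043613) spans chr9:7445822-7455975. Mmp2 lies at chr8:92827291-92853420, Mmp9 at chr2:164940780-164955850, Mmp11 at chr10:75923222-75936496, Mmp14 at chr14:54431612-54445364 and Mmp19 at chr10:128790910-128800824. Timp2 lies at chr11:118301069-118355740. The other TIMP genes sit within synapsin genes on the opposite strand: Timp1 at chrX:20870166-20874735 within Syn1, and Timp3 at chr10:86300372-86349506 within Syn3. The sources used here do not say whether counting used strand, so reads of Timp3 and Syn3 may be mixed.

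The matrices held 8813 to 16045 barcodes and 92313847 to 197140774 UMIs (unique molecular identifiers, the molecules counted) per library. After filters and doublet removal, 10442, 6496, 7935 and 10173 cells remained at 0, 12, 17 and 28 dpa, with a median of 11636.5, 9543, 8511 and 6661 UMIs per cell. Pairs of libraries shared 19 to 87 barcodes. Against the label of pooled sexes, Y-linked transcripts were found in 77.9%, 58.4% and 47.2% of cells of the unamputated, 17 dpa and 28 dpa libraries and in none at 12 dpa, where 54.2% of cells carried Xist. Any difference of the 12 dpa library therefore cannot be told apart from one between sexes, and Timp1 is X-linked. Cells fell into 29 clusters, named only where at least 3 markers of a class were detected. The clusters numbered 0 and 1 kept numbers: cluster 0 was led by H2-Ab1, H2-Aa, Cd74 and Ccr2, and cluster 1 by Acp5, Atp6v0d2, Clec4e and Clec5a.

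Levels are UMI counts scaled to a total of 1e6 (CPM) summed over the cells of a class in a library, with exact 95% Poisson intervals in brackets. Shares of cells are given after thinning each cell to 2000 UMIs, with exact binomial intervals in the underlying calculation, and all intervals cover counting error only. A log2 ratio compares a library with the unamputated one on CPM plus 1. A gene was counted as past 2-fold when this ratio was at least 1 in size and the higher library had at least 5 CPM. All 3 time points share the unamputated library. Other settings tried were other cell filters, doublets kept, coarser (resolution 0.5) or finer (resolution 2) clusters, each cell named alone by its markers, connective classes pooled, and other scalings, pseudocounts and weights. T or NK lymphocyte-like cells, which should lack most of these genes, served as the reference for free RNA, which was not measured directly (276, 157, 116 and 77 cells, median 4609, 3027, 3661 and 2452 UMIs). Their values may also hold doublets or RNA of their own. They also held fewer UMIs per cell than most classes, so equal free RNA per cell would weigh more in their CPM and thinned shares. A value at or below the reference therefore does not show that a class lacked the transcript. The median gene of a class shifted by between -0.28 and 0.10 on the log2 scale.

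**Figure D1:**
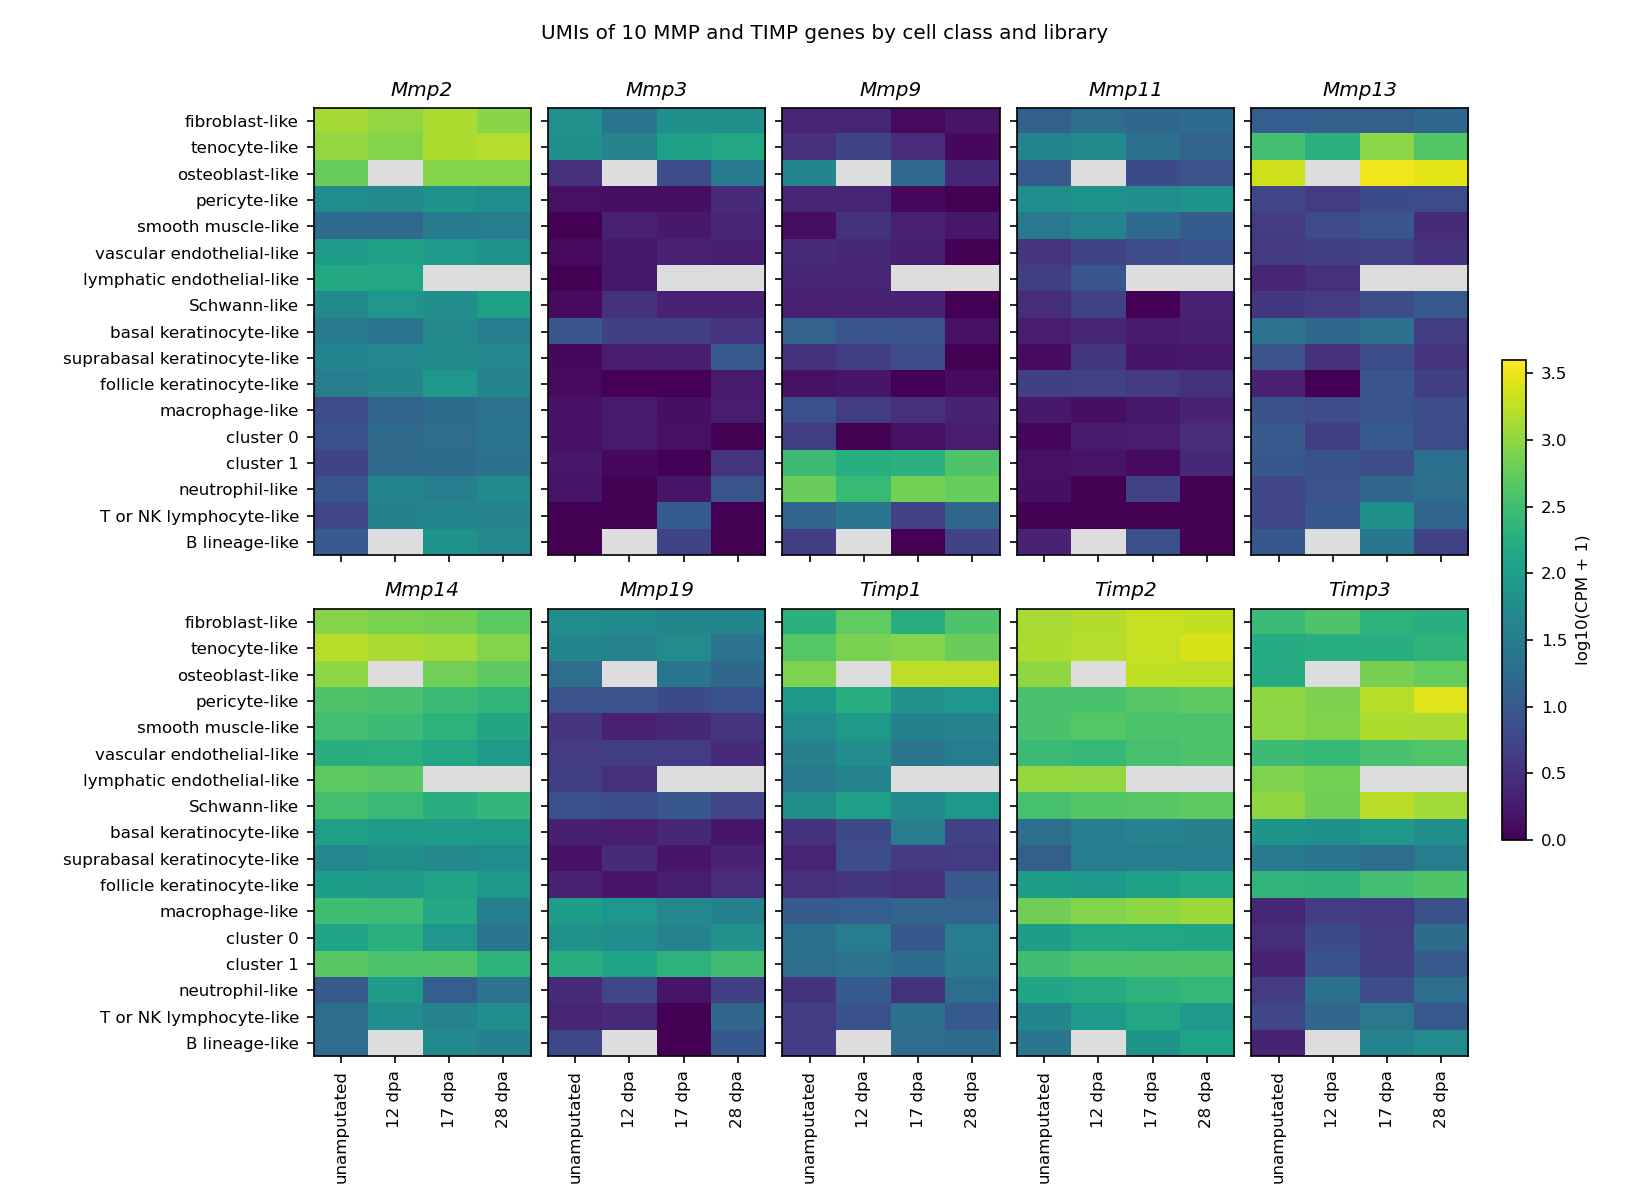
Level of each of the 10 genes, as log10 of CPM + 1 (colour), in 17 classes or clusters (rows) and 4 libraries (columns), with grey for classes under 50 cells in a library. Mmp13 peaks in osteoblast-like cells, Mmp9 in neutrophil-like cells and cluster 1, and Timp3 is high in pericyte-, smooth muscle-, Schwann- and lymphatic endothelial-like cells; each cell is 1 library with no replicate.

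Mmp13, the main fibrillar collagenase of rodents and a product of bone-forming cells, was a gene of osteoblast-like and tenocyte-like cells. Osteoblast-like cells held 2215 CPM (2175 to 2255) without amputation, and 3373 (3323 to 3423) and 2823 (2759 to 2888) in the 17 and 28 dpa libraries. The intervals did not overlap, and both amputated libraries stood above the unamputated one, by log2 0.61 and 0.35, the latter turning to -0.18 with doublets kept. Only 8 osteoblast-like cells were kept at 12 dpa, too few to use. A thinned UMI was found in 78.3%, 75.8% and 77.2% of osteoblast-like cells (91.3%, 87.4% and 84.0% unthinned), against 1.14%, 3.92% and 3.51% of the lymphocyte reference.

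Tenocyte-like cells carried Mmp13 at 333 CPM (325 to 340.2) without amputation, and at 195 (190.0 to 199.7), 928 (909.9 to 947) and 431 (414 to 449) in the 12, 17 and 28 dpa libraries. The 17 dpa library was the highest and the 12 dpa library the lowest, with no overlap of intervals. These cells fell into cluster 10, led by Chad, Comp, Igf2 and Gpx3, and cluster 11, led by C1qtnf3, Tnn, Fbn2 and Col11a1. Their cell numbers were 256 and 716 in the unamputated library, 51 and 1815 at 12 dpa, 463 and 333 at 17 dpa, and 216 and 360 at 28 dpa. Within cluster 10, Mmp13 stood at 1259, 937, 1760.0 and 964 CPM in the order 0, 12, 17 and 28 dpa. Within cluster 11 it stood at 107, 179.5, 279 and 249 CPM. At 17 dpa the ratio was 1.48 for the class (2.79-fold) but 0.48 in cluster 10 and 1.38 in cluster 11, and at 12 dpa it was -0.77 for the class, -0.43 in cluster 10 and 0.75 in cluster 11. The class ratio at 12 dpa turned to 0.65 with looser filters and to 0.44 at resolution 0.5.

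A minority of cells held most of the Mmp13 transcripts. Cells with at least 10 Mmp13 UMIs, a limit set after the data were seen, were 34.8%, 31.4%, 26.3% and 18.98% of cluster 10 at 0, 12, 17 and 28 dpa and held 86.3% to 95.4% of its Mmp13 UMIs. This limit is not matched for depth, and the other cells of cluster 10 had a median of 16297, 11070, 8769 and 5419 UMIs in the same order. After thinning, an Mmp13 UMI was found in 45.7%, 47.1%, 40.2% and 36.8% of cluster 10 cells, with overlapping intervals. In cluster 11 they were 51 of 716, 113 of 1815, 26 of 333 and 11 of 360 cells, with 88.3% to 91.5% of the UMIs. Osteoblast-like cells supplied 58.0%, 62.8% and 72.1% of all Mmp13 UMIs at 0, 17 and 28 dpa, and tenocyte-like cells 37.5%, 34.9% and 22.1%. Fibroblast-like cells held 11.1, 11.4, 11.2 and 15.1 CPM, against 4.84, 8.93, 62.1 and 14.4 CPM in the lymphocyte reference. Thinned shares were 0.838%, 2.08%, 1.46% and 1.39% against 1.14%, 0.725%, 3.92% and 3.51% in the reference, and unthinned ones 7.06%, 6.14%, 7.98% and 4.50% against 2.54%, 3.18%, 6.03% and 3.90%. At matched depth the intervals overlapped in every library, while the unthinned shares were higher in fibroblast-like cells, which held more UMIs per cell. These comparisons therefore cannot decide whether fibroblast-like cells carried Mmp13 above free RNA.

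Mmp3, or stromelysin 1, cuts proteoglycans and non-fibrillar collagens and can activate other proMMPs. Fibroblast-like cells held 65.8 CPM (61.6 to 70.2) without amputation, and 24.0 (19.3 to 29.5), 63.8 (60.5 to 67.2) and 58.9 (55.9 to 62.1) in the 12, 17 and 28 dpa libraries. The 12 dpa library was low, at a ratio of -1.42, and the other 3 lay close together. That ratio stayed past 2-fold under 11 of 15 other settings and turned to 0.14 when each cell was named alone. Tenocyte-like cells held 62.7 (59.5 to 66.0), 39.8 (37.7 to 42.1), 115 (108 to 122) and 143 (133 to 153) CPM, again lowest at 12 dpa, although the 12 dpa ratio turned to 0.23 with looser filters. The lymphocyte reference had no Mmp3 UMI in 3 libraries and 10.0 CPM at 17 dpa.

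Mmp3 differed among clusters as well as among time points. Of the 3 fibroblast-like clusters, cluster 15, led by Gdf10, C4b, Lsamp and Igf1, had 139, 50.1, 141 and 199.9 CPM at 0, 12, 17 and 28 dpa. Cluster 16, led by Ccn3, Sema3e, Clec3b and Scara5, had 18.1, 21.9, 16.1 and 17.3 CPM. Cluster 17, led by Itih5, Fgl2, Hcn4 and Gpc6, had 1.13, 2.94, 0.963 and then 40.8 CPM at 28 dpa. That last value rests on few cells, with a thinned Mmp3 UMI in 3 of 294. The low class value at 12 dpa went with few cells of cluster 15: that cluster gave 42 of 293 fibroblast-like cells then, against 316 of 722 without amputation. Within cluster 15 the 12 dpa ratio was -1.46. Within cluster 16 it was 0.26, with overlapping intervals (14.9 to 21.8 and 16.9 to 28.0 CPM), so no difference was detectable there.

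In tenocyte-like cells the clusters diverged at 28 dpa. Mmp3 in cluster 10 stood at 149.6, 103, 205 and 521 CPM, and a thinned UMI was found in 14.6%, 9.80%, 19.3% and 31.1% of its cells. In cluster 11 it stood at 41.5, 38.5, 44.4 and 13.7 CPM. The ratios at 28 dpa were 1.79 in cluster 10 and -1.53 in cluster 11, on either side of the class value of 1.18. Osteoblast-like cells held 2.05 CPM of Mmp3 (1.02 to 3.66) without amputation, then 6.23 (4.26 to 8.79) and 28.1 (22.1 to 35.3) in the 17 and 28 dpa libraries. Few cells carried it, with a thinned UMI in 0 of 226, 2 of 360 and 12 of 347 in the same order. At 12 dpa the 8 osteoblast-like cells, too few for a class value, held 233 of the library's 1631 Mmp3 UMIs (14.3%).

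**Figure D2:**
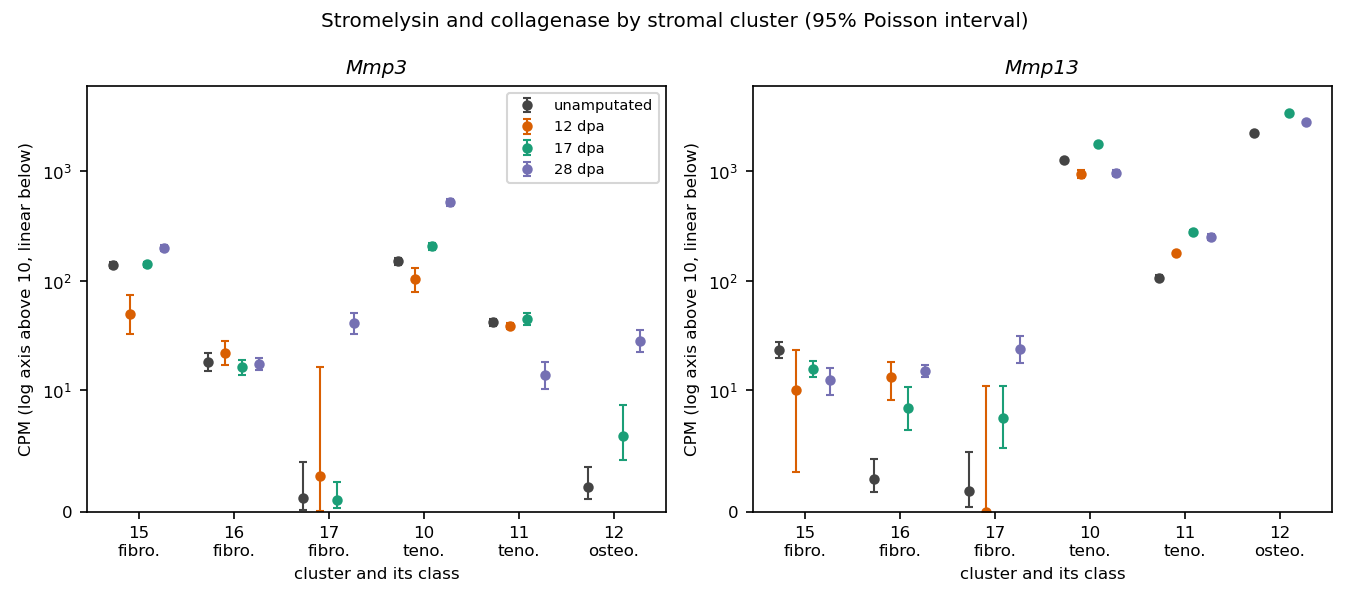
CPM of Mmp3 (left) and Mmp13 (right) in 6 stromal clusters by library, with 95% Poisson intervals, on an axis that is logarithmic above 10 and linear below. Mmp3 is high in fibroblast-like cluster 15 and tenocyte-like cluster 10, Mmp13 in clusters 10 and 12, and Mmp3 in cluster 10 reaches 521 CPM at 28 dpa while cluster 11 is at 13.7 CPM.

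Of the fibroblast- and tenocyte-like clusters, cluster 10 had the highest Mmp13 and, in every library, the highest Mmp3 CPM, and the genes often shared cells. Without amputation the thinned Mmp3 share did not follow this order, at 15.9% in cluster 15 and 14.6% in cluster 10, with overlapping intervals. After thinning, Mmp13 was found in 62.2% of cluster 10 cells with an Mmp3 UMI and 42.9% of those without in the unamputated library. The same shares were 55.7% and 36.5% at 17 dpa and 43.9% and 33.6% at 28 dpa, while at 12 dpa Mmp13 was in 3 of the 5 cells with Mmp3 and 45.7% of the others. In cluster 11 the shares were 35.7% and 7.81%, 33.8% and 9.26%, 25% and 11.5%, and 30% and 6.86% from 0 to 28 dpa. The share was higher in Mmp3-positive cells in each of these comparisons, as a description of cells that share a library. In fibroblast-like cluster 15 Mmp13 was rare, in 4 of 314, 7 of 703 and 6 of 653 cells at 0, 17 and 28 dpa. Among its Mmp3-positive cells it was found in 1 of 50, 3 of 106 and 3 of 144. These shares were higher than those of the whole cluster, though on few cells.

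Mmp11, or stromelysin 3, is activated inside the cell by furin-like proteases and had its highest CPM in pericyte-like cells. These held 57.3 CPM (52.9 to 61.9), 67.0 (60.1 to 74.5), 56.4 (50.1 to 63.2) and 69.5 (62.2 to 77.5) at 0, 12, 17 and 28 dpa. The intervals overlapped except between the unamputated and 28 dpa libraries, and no ratio exceeded 0.28. In tenocyte-like cells Mmp11 stood at 40.7 (38.1 to 43.4), 51.8 (49.3 to 54.3), 19.9 (17.3 to 22.8) and 12.9 (10.0 to 16.3) CPM. There the 17 and 28 dpa libraries lay below the other pair, and cluster 11 showed the same order at 47.8, 52.1, 26.9 and 15 CPM. Smooth muscle-like cells also had their lowest values late, with 26.4, 41.7, 17.2 and 10.3 CPM. Fibroblast-like cells held 12.2 to 18.1 CPM, and the lymphocyte reference had no Mmp11 UMI in any library. Pericyte-like cells were not the largest source of Mmp11 UMIs. Tenocyte-like cells held 943 and 1649 at 0 and 12 dpa, against 627 and 341 in pericyte-like cells. Fibroblast-like cells held 342 and 408 at 17 and 28 dpa, against 290 and 328.

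Mmp2, the gelatinase made constitutively by mesenchymal cells, was abundant in all 3 stromal classes. Fibroblast-like cells held 1281 CPM (1262 to 1300.4), 1046 (1013 to 1079), 1435 (1419 to 1451) and 921 (909 to 933) at 0, 12, 17 and 28 dpa. Tenocyte-like cells held 1046 (1032 to 1059), 843 (832 to 853), 1449 (1426 to 1473) and 1562 (1529 to 1596). At 28 dpa these classes went apart, with ratios of -0.48 and 0.58, neither of them past 2-fold. Osteoblast-like cells held 569.7, 870.1 and 869 CPM at 0, 17 and 28 dpa. Within the fibroblast-like clusters 15, 16 and 17 the 28 dpa ratios were -0.11, -0.55 and -0.47, and cluster 16, with 289 of 722 cells without amputation and 1453 of 2424 at 28 dpa, had 1193, 1071, 1289 and 812 CPM. In the tenocyte-like clusters they were -0.27 in cluster 10 and 0.83 in cluster 11, so the higher class value lay in cluster 11, at 949, 832, 1054 and 1688 CPM.

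Mmp2 was found widely in fibroblast-like cells, with a thinned UMI in 81.8%, 76.5%, 76.5% and 72.9% of them (96.7%, 93.9%, 90.8% and 91.4% unthinned). The reference shares were 0.758%, 7.25%, 2.94% and 8.77%. In the amputated libraries the lymphocyte reference held 37.5, 44.1 and 38.5 CPM against 4.84 CPM without amputation. Macrophage-like cells held 5.70, 13.0, 17.9 and 22.3 CPM, which after amputation was below that reference, and thinned shares were 0.683%, 2.11%, 3.24% and 5.39%, with intervals that overlapped those of the reference. CPM and thinned shares both scale to a cell's own UMIs, which were more numerous in macrophage-like cells. They therefore cannot decide whether macrophage-like cells carried Mmp2 above free RNA.

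Mmp9, the gelatinase stored in neutrophil granules and released by osteoclasts, came mainly from myeloid cells. Neutrophil-like cells held 596 CPM (575 to 618), 267 (219.9 to 322), 709 (669.6 to 751) and 584 (496 to 684) at 0, 12, 17 and 28 dpa. The 12 dpa library was low, at a ratio of -1.15, while the 17 and 28 dpa libraries had ratios of 0.25 and -0.03. The class was made up of cluster 9, led by Camp, Ngp and Ltf, and cluster 19, led by Ccrl2, Stfa2l1 and G0s2, and cluster 9 had no cells at 12 and 28 dpa. In cluster 19 alone Mmp9 stood at 511, 267, 639.6 and 584 CPM, a ratio of -0.93 at 12 dpa. Fibroblast-like cells held at most 1.39 CPM, and the lymphocyte reference 4.01 to 25.0 CPM.

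Cluster 1 was the other main source, at 297 CPM (286 to 309), 182 (171 to 195), 200.4 (186 to 215) and 408 (380.0 to 437). It supplied 41.3%, 69.6%, 35.1% and 79.8% of all Mmp9 UMIs. At 12 dpa tenocyte-like cells, at only 4.46 CPM, supplied 11.1%, more than the 8.68% of neutrophil-like cells. Nearly all of its Mmp9 sat in few cells. Cells with at least 10 Mmp9 UMIs, a limit again set after the data were seen, were 30 of 609, 10 of 501, 11 of 329 and 13 of 247, and they held 95.3%, 93.7%, 93.9% and 99.6% of the cluster's Mmp9 UMIs.

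These Mmp9-high cells carried osteoclast genes at far higher levels than the rest of cluster 1. The 7 osteoclast markers summed to 13220, 13238, 11706 and 13553 CPM in them and to 718, 755, 637 and 519 CPM in the other cells. Ctsk, the collagen-cutting cathepsin of osteoclasts, stood at 17734, 16640, 16259 and 18508 CPM against 1625, 1054, 1647 and 2287 CPM. The Mmp9-high cells were also richer in RNA, with a median of 18061 to 25890 UMIs against 6107 to 12732 UMIs. They are a subset picked by Mmp9 itself, so these values are a description with no test.

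The proteases divided between the parts of cluster 1. Mmp14 was higher in the Mmp9-high cells, at 908, 835, 1206 and 767 CPM against 437, 357, 336 and 130 CPM. Mmp19 was lower there, at 31.0, 8.98, 7.66 and 12.0 CPM against 194, 128, 224 and 354 CPM. The macrophage elastase Mmp12 was lower in 3 of the 4 libraries, at 3.57, 0 and 43.9 CPM against 378, 609 and 1212 CPM at 0, 17 and 28 dpa, and not at 12 dpa (323 against 256 CPM).

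**Figure D3:**
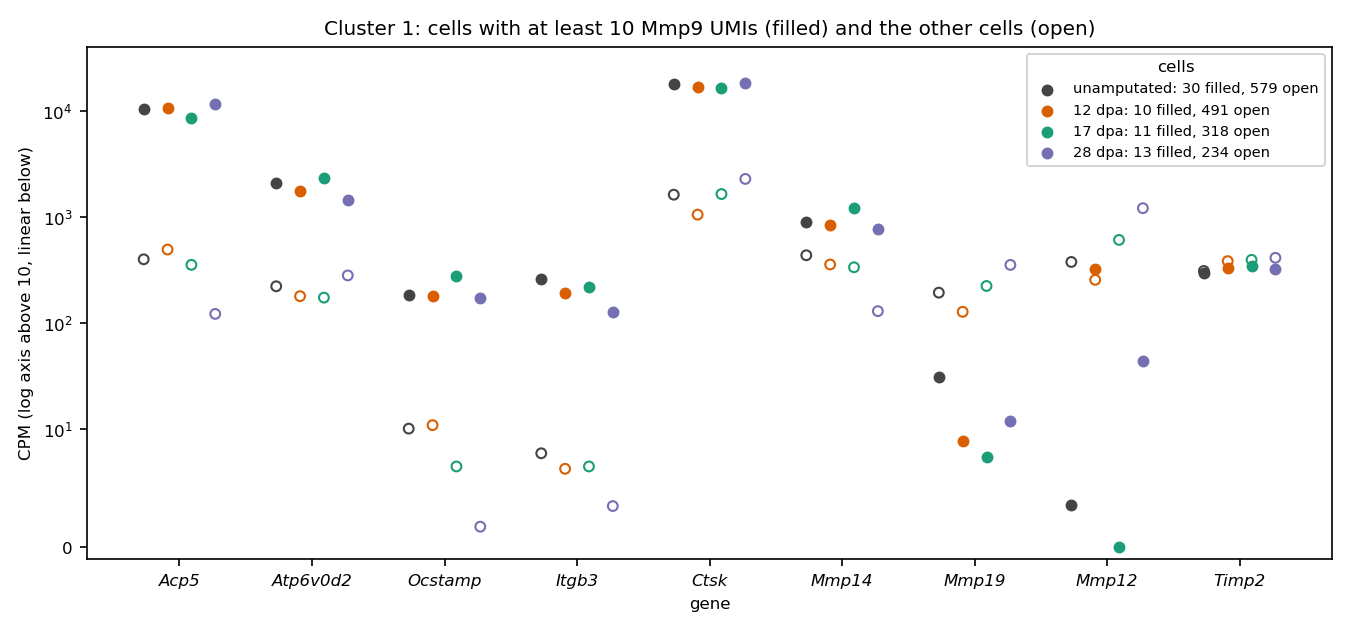
CPM of 9 genes in cluster 1, split into cells with at least 10 Mmp9 UMIs (filled) and the other cells (open), 1 point per library, on an axis that is logarithmic above 10 and linear below. Osteoclast genes and Mmp14 are higher in the filled points and Mmp19 in the open ones in all 4 libraries.

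Mmp9 was also found in osteoblast-like cells at 43.5 CPM (38.1 to 49.5) without amputation, and with 15.95 CPM (12.7 to 19.8) and 1.52 CPM (0.414 to 3.89) in the 17 and 28 dpa libraries. In the unamputated library 5 of 229 cells held 66.7% of these UMIs. In those 5 cells 5 of the 7 osteoclast markers were at 0 and Acp5 and Itgb3 had 1 UMI each, the 7 summing to 19.6 CPM against 18.2 CPM in the other 224 cells, while the osteoblast gene Ibsp stood at 3225 CPM. Neutrophil markers moved with Mmp9 over the libraries: the 11 markers summed to 354, 160 and 7.21 CPM in osteoblast-like cells at 0, 17 and 28 dpa, with 1, 0 and 7 of them at 0. Within the unamputated library the sum was 49.0 CPM in the 5 cells and 360 CPM in the others. The part of neutrophil RNA in the remaining Mmp9 UMIs was not tested.

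Mmp14, a membrane-anchored collagenase that also activates proMmp2 together with Timp2, was expressed across stromal, mural, endothelial and macrophage-like cells. Tenocyte-like cells held 1643 CPM (1626 to 1659), 1371 (1358 to 1384), 1263 (1241 to 1284) and 863 (838 to 888) at 0, 12, 17 and 28 dpa. Fibroblast-like cells held 877 (861 to 893), 759 (732 to 788), 711 (699.8 to 722) and 486 (477 to 495). In both classes every later library was lower with no overlap of intervals, and the 28 dpa ratios were -0.93 and -0.85. At 12 dpa the fibroblast ratio of -0.21 turned to 0.13 at resolution 2 and was also above 0 with looser filters or each cell named alone, and the tenocyte ratio of -0.26 turned to 0.04 with clusters weighted equally. Pericyte-like cells held 411, 365, 284 and 230.4 CPM, and lymphatic endothelial-like cells 513 and 464 CPM at 0 and 12 dpa. Within the fibroblast-like clusters 15, 16 and 17 the 28 dpa ratios were -1.01, -0.77 and -0.33. A thinned Mmp14 UMI was found in 74.7%, 68.5%, 64.5% and 54.0% of fibroblast-like cells, against 3.79%, 10.9%, 4.90% and 8.77% of the lymphocyte reference.

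Macrophage-like cells held 312 CPM of Mmp14 (301 to 323), 307 (292 to 323), 148 (140.3 to 155) and 34.7 (31.6 to 38.0). The lymphocyte reference at 28 dpa, which rests on 12 UMIs, was 57.7 CPM (29.8 to 101), and its interval holds the macrophage value. Thinned shares at 28 dpa were 5.86% in the class and 16.2% in its cluster 2, against 8.77% in the reference, with overlapping intervals. The class changed its makeup: cluster 2, led by Ms4a7, Apoe and C1qb, gave 774, 486, 438 and 182 cells, and cluster 27, led by F13a1, Pf4, Lyve1 and Folr2, gave 81, 16, 491 and 1518. Mmp14 in cluster 2 stood at 321, 312, 216 and 103 CPM. In cluster 27 it stood at 64.3, 58.2 and 27.3 CPM at 0, 17 and 28 dpa, with too few cells at 12 dpa. The 28 dpa ratio was -3.13 for the class, -1.63 in cluster 2 and -1.21 in cluster 27, so it was smaller within each of these clusters than over the class. Cluster 0 was lower too, with 125, 195, 76.2 and 25.0 CPM.

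Over all 16 classes compared at 28 dpa, Mmp14 was lower than without amputation in 12, each with an interval below 0. Of all genes tested in those classes, 47.4% were lower in at least 12, so the count itself is near the background. The 4 classes in which it was higher were neutrophil-, T or NK lymphocyte-, B lineage- and suprabasal keratinocyte-like cells.

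Mmp19, a metalloproteinase known from myeloid cells, stood highest in cluster 1, with 178 CPM (169 to 187), 123 (113 to 133), 209 (195 to 224) and 311 (286 to 336). Macrophage-like cells held 99.3 (93.4 to 106), 75.8 (68.3 to 83.9), 48.9 (44.7 to 53.4) and 37.3 (34.1 to 40.7) CPM, an order opposite to that of cluster 1 at 17 and 28 dpa. Within cluster 2, however, Mmp19 stood at 109, 80.7, 77.1 and 123 CPM, and in cluster 27 at 45.0, 33.6 and 28.1 CPM at 0, 17 and 28 dpa. The 28 dpa ratio of -1.39 in the class thus went with 0.17 in cluster 2 and -0.66 in cluster 27. Fibroblast-like cells held 55.0, 51.9, 44.6 and 43.1 CPM.

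Timp1, the secreted inhibitor that is inducible by growth factors and inflammatory cytokines, stood higher at 12 dpa in every class tested. The lymphocyte reference was among these classes. Fibroblast-like cells held 193 CPM (185 to 200.1) without amputation, and 522 (499 to 545), 172 (167 to 178) and 406 (398 to 414) in the 12, 17 and 28 dpa libraries. The 12 and 28 dpa libraries lay well above the other pair, by log2 1.43 (interval 1.35 to 1.52) and 1.07 (1.01 to 1.14) over the unamputated one, and stayed past 2-fold under 12 and 9 of 15 other settings. Thinned Timp1 UMIs were found in 24.4%, 42.9%, 21.5% and 32.9% of these cells (70.4%, 81.9%, 58.5% and 63.2% unthinned), against 0.379%, 2.90%, 1.96% and 1.75% of the reference.

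The fibroblast-like clusters differed in Timp1 level and shared the 12 dpa direction. Cluster 16 had 263, 583, 262 and 506 CPM, cluster 15 had 129, 244, 114 and 156 CPM, and cluster 17 had 150.3, 403, 101 and 231 CPM. Their 12 dpa ratios were 1.15, 0.92 and 1.42. At 28 dpa the ratios were 0.94, 0.28 and 0.62, none of them past 2-fold, although the class was: cluster 16 gave 289 of 722 fibroblast-like cells without amputation and 1453 of 2424 at 28 dpa.

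Osteoblast-like cells held Timp1 at 793 CPM (769.7 to 818), 1741 (1705 to 1777) and 1740.4 (1690.4 to 1792) at 0, 17 and 28 dpa. Both late libraries were higher by the same ratio of 1.13 and their intervals overlapped. Tenocyte-like cells held 446, 739, 861 and 589.7 CPM, highest at 17 dpa. Within them cluster 10 had 131, 198, 399.7 and 366 CPM and cluster 11 had 523, 750.4, 1220.5 and 666 CPM.

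At 12 dpa Timp1 was higher in 14 of 14 classes tested, in 10 with an interval above 0. Of all genes tested in at least 14 of the 15 classes, 3.22% were higher in every class tested. The 14 classes include the lymphocyte reference itself, at 3.46 CPM (5 UMIs) without amputation and 7.14 CPM (4 UMIs) at 12 dpa. Basal and suprabasal keratinocyte-, neutrophil- and macrophage-like cells were close to that reference at 12 dpa, with 5.23, 6.36, 9.63 and 10.97 CPM. The part of free RNA in classes with low Timp1 levels was not tested. Pericyte-like cells held 82.5, 177, 65.1 and 75.9 CPM, and there the 12 dpa library stood apart from the other 3. Timp1 is on the X chromosome and the 12 dpa library is the one with Xist, so time and sex cannot be told apart here. Basal keratinocyte-like cells showed another order, with 2.24, 5.23, 31.7 and 3.99 CPM and the 17 dpa library the highest.

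Timp2, the inhibitor that also helps Mmp14 to activate proMmp2, was abundant in stromal, lymphatic endothelial- and macrophage-like cells. Fibroblast-like cells held 1356 CPM (1337 to 1376), 1517 (1477 to 1557), 1899.8 (1882 to 1918) and 1854 (1837 to 1872). Tenocyte-like cells held 1445, 1600.3, 1928 and 2387 CPM, osteoblast-like cells 995, 1810.1 and 1764 CPM at 0, 17 and 28 dpa, and macrophage-like cells 664, 864, 987 and 1183 CPM. In each of these classes all amputated libraries lay above the unamputated one with no overlap of intervals. Among macrophage-like cells, cluster 2 had 672, 915, 843 and 988 CPM and cluster 27 had 816, 1216 and 1225 CPM at 0, 17 and 28 dpa, so both were higher after amputation. Lymphatic endothelial-like cells held 1069.9 CPM (1027 to 1114) without amputation and 1042 (990.4 to 1096) at 12 dpa, with overlapping intervals. A thinned UMI was found in 86.6%, 89.6%, 90.3% and 91.7% of fibroblast-like cells.

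Timp2 was higher in all 16 classes compared at 17 dpa, where 2.65% of genes tested in all of them were, and in all 16 at 28 dpa, where 3.8% were. The interval lay above 0 in 14 and 15 of those classes, and smooth muscle-like cells were an exception at both times, with 364, 448, 384 and 376 CPM from 0 to 28 dpa. The lymphocyte reference itself held 43.6, 91.1, 140.3 and 86.5 CPM of Timp2, higher after amputation as well, and the part of free RNA in classes with low levels was not tested. Fibroblast-, tenocyte-, osteoblast- and macrophage-like cells lay above that reference in every library in which they were measured, with no overlap of intervals.

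**Figure D4:**
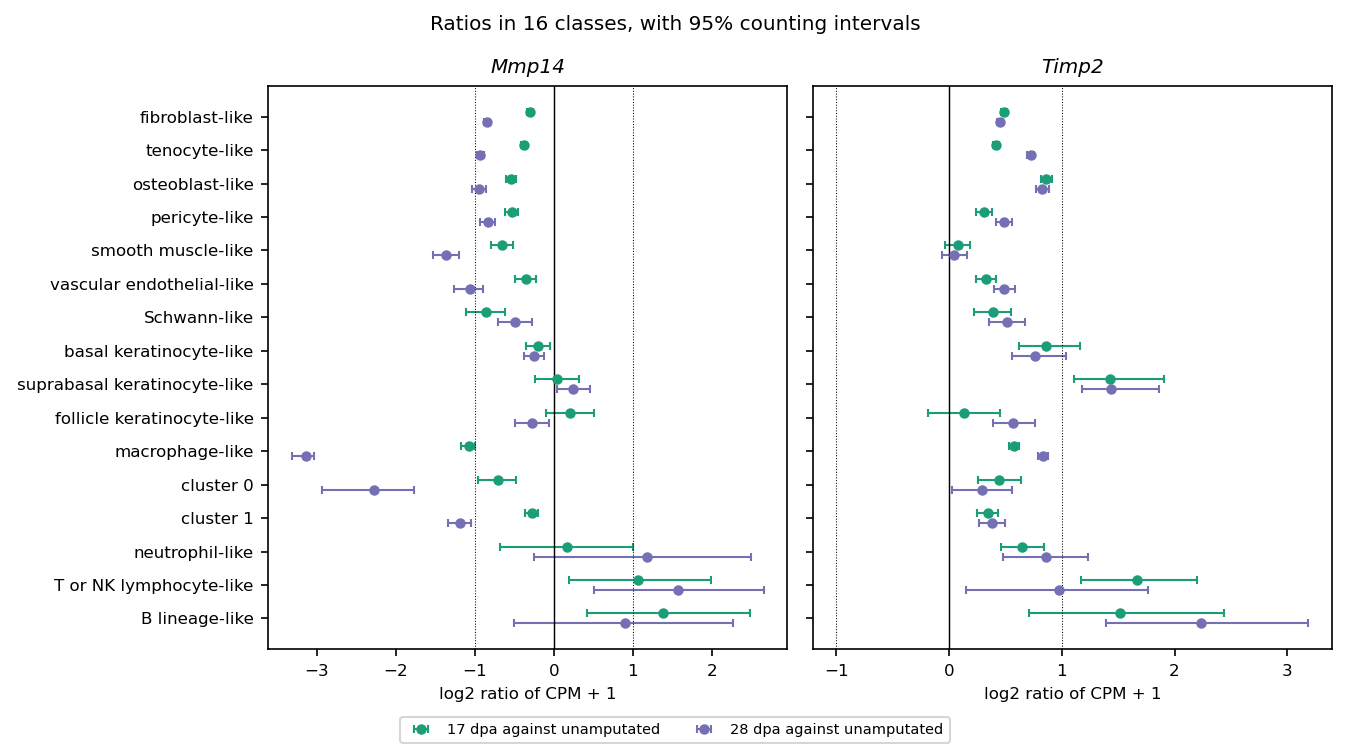
Log2 ratio (CPM + 1) of Mmp14 (left) and Timp2 (right) at 17 and 28 dpa against the unamputated library in 16 classes, with 95% counting intervals and dotted lines at 2-fold. Timp2 lies to the right of 0 in all 16 classes at both times and Mmp14 to the left in 12 at 28 dpa, with both times sharing the 1 unamputated library.

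Timp3, the inhibitor that binds to the extracellular matrix and also blocks ADAM and ADAMTS proteases, had its highest levels in mural, Schwann- and lymphatic endothelial-like cells. Pericyte-like cells held 1018 CPM (999 to 1037), 778 (754 to 802), 1658 (1623 to 1694) and 2676 (2629.9 to 2724) at 0, 12, 17 and 28 dpa. The 12 dpa library was lowest and the 28 dpa library highest, at a ratio of 1.39 (1.36 to 1.43). Both pericyte-like clusters had their highest value at 28 dpa: cluster 14, led by Rgs5, Higd1b and Abcc9, had 1031, 756, 1721 and 2711 CPM, and cluster 18, led by Trpc6 and Stac, had 916, 884, 1067 and 1974 CPM. Thinned Timp3 UMIs were found in 61.9%, 49.9%, 79.1% and 89.5% of pericyte-like cells (85.1%, 72.7%, 89.7% and 93.8% unthinned), against 1.52%, 5.07%, 1.96% and 1.75% of the reference.

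Smooth muscle-like cells held 965, 830.0, 1440.5 and 1397 CPM of Timp3 and Schwann-like cells 1002, 652, 1705 and 1261 CPM, both lowest at 12 dpa. In smooth muscle-like cells the 17 and 28 dpa intervals overlapped. Lymphatic endothelial-like cells, with enough cells in the first pair of libraries only, held 796 CPM (759.6 to 834) without amputation and 697 (655 to 742) at 12 dpa. Osteoblast-like cells held 164 CPM (153 to 175) without amputation, against 738 (714 to 762) and 559 (531 to 588) in the 17 and 28 dpa libraries. Fibroblast-like cells were highest at 12 dpa, with 279 (271 to 288), 404 (384 to 425), 209.5 (204 to 216) and 187 (181 to 192) CPM. The 12 dpa direction depended on the settings, since the ratio of 0.53 turned below 0, to -0.14 at the lowest, with looser filters, resolution 2, each cell named alone or connective classes pooled. Pooling also turned the 17 and 28 dpa ratios, to 0.44 and 0.14. The clusters differed: cluster 16 stood at 332, 437, 143 and 157 CPM, cluster 15 at 252, 264, 215 and 255 CPM and cluster 17 at 182, 324, 344 and 253 CPM, above its unamputated value in every later library. Syn3, the gene around Timp3, stood at 94.2, 52.1, 155 and 134 CPM in pericyte-like cells and at 14.5, 85.4 and 36.4 CPM in osteoblast-like cells at 0, 17 and 28 dpa. In osteoblast-like cells its order over the libraries was that of Timp3, and in pericyte-like cells it was lower at 28 than at 17 dpa, where Timp3 was higher; its part in the Timp3 values was not tested. Dissociation-response genes lay on the same side as Timp3 in the mural and Schwann-like cells. Their median ratios at 12, 17 and 28 dpa were -0.48, 0.44 and 0.55 in pericyte-like, -0.50, 0.33 and 0.83 in smooth muscle-like and -0.39, 1.03 and 0.62 in Schwann-like cells, and their part was not tested.

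Counted within fibroblast-like cells, 9 of the 10 genes reached 5 CPM, Mmp9 being the exception. At 12 dpa 2 of the 9 were past 2-fold, Mmp3 lower and Timp1 higher, where 9.1% of all genes tested were. At 17 dpa none was, where 1.94% of genes were, and at 28 dpa Timp1 alone was, where 8.75% were. The median ratio of the 9 was 0.05, -0.04 and -0.16, beside -0.22, -0.04 and -0.14 over all genes tested. These shares rest on few genes, and under the other settings tried 1 to 4, 0 to 2 and 0 to 4 genes were past 2-fold.

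**Figure D5:**
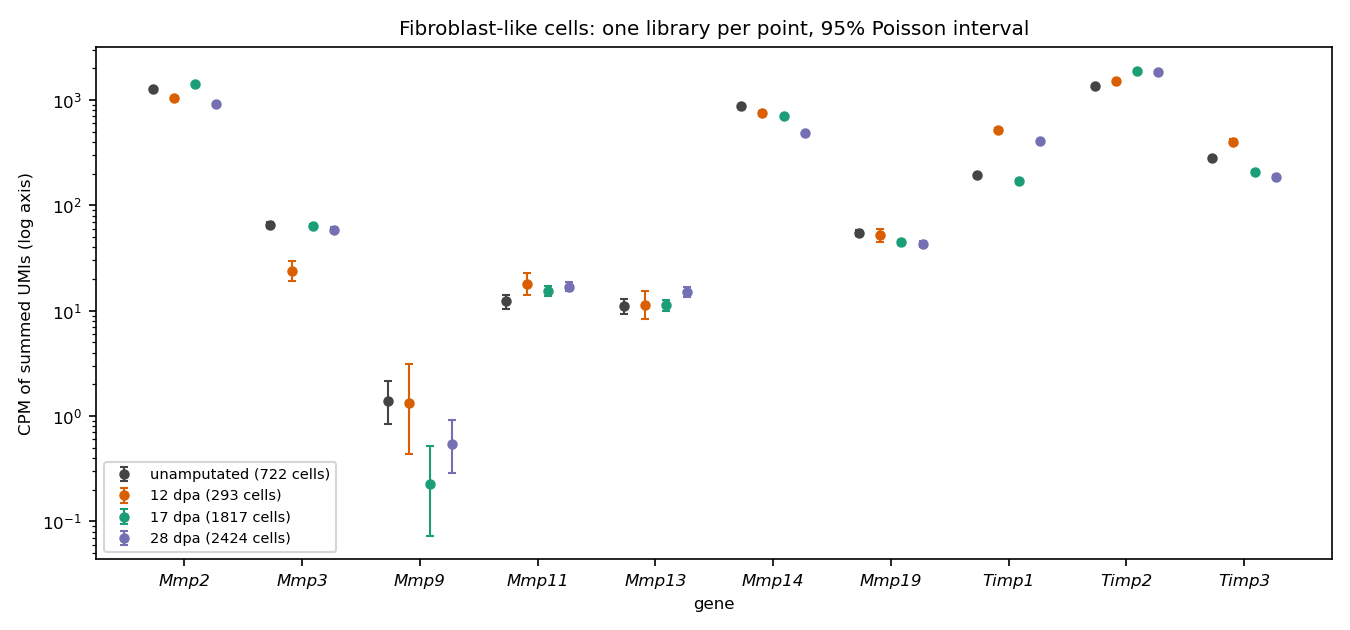
CPM of the 10 genes in fibroblast-like cells on a log axis, 1 point per library with its 95% Poisson interval (722, 293, 1817 and 2424 cells). Mmp3 is low at 12 dpa and Timp1 high at 12 and 28 dpa, while Mmp14 is lower in each later library.

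In tenocyte-like cells none of 9 genes was past 2-fold at 12 dpa (2.27% of all genes tested), Mmp13 was at 17 dpa (2.52%), and Mmp3 (higher) and Mmp11 (lower) were at 28 dpa (9.81%). Mmp13 stayed past 2-fold under 10 of 14 other settings (to 0.58), and the Mmp3 ratio of 1.18 turned to -1.52 when clusters were drawn at resolution 0.5. In osteoblast-like cells all 10 genes were tested, and 4 were past 2-fold at both 17 dpa (7.72% of all genes) and 28 dpa (13.8%): Mmp3, Timp1 and Timp3 higher and Mmp9 lower. Mmp3 at 17 dpa, at 6.23 CPM, lay below the lymphocyte reference of 10.0 CPM (3.25 to 23.4). By CPM a level above the reference was thus not detectable there, whereas at 28 dpa Mmp3 lay above it. The Timp1 ratio at 17 dpa was no longer past 2-fold with doublets kept (0.66), nor was that at 28 dpa (0.98). The Timp3 ratios were 2.16 (4.47-fold) and 1.76 (3.39-fold). The Mmp9 ratio reached -4.14 at 28 dpa, where the neutrophil markers in these cells were also lower, as given above. Beside this, 7 and 9 of 14 genes that respond to tissue dissociation were past 2-fold higher in osteoblast-like cells at 17 and 28 dpa, with medians of 1.03 and 1.16; their part in these values was not tested.

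In pericyte-like cells Timp1 alone was past 2-fold at 12 dpa (3.85% of all genes tested), none of the 10 at 17 dpa (1.7%) and Timp3 alone at 28 dpa (5.43%). In vascular endothelial-like cells none was at 12 dpa (1.63%) or 17 dpa (2.04%), and Mmp11 (higher) and Mmp14 (lower) were at 28 dpa (6.16%), Mmp11 at only 2.53 and 6.95 CPM. In macrophage-like cells Mmp2 alone was at 12 dpa (3.33%). There Mmp2 (higher) and Mmp9, Mmp14 and Mmp19 (lower) were at 17 dpa (5.01%), and the same 4 and Timp3 (higher) at 28 dpa (9.95%). Of these, Mmp2 and Timp3 stood below the lymphocyte reference in the amputated libraries and Mmp9 in all 4, at 6.67 CPM or less. By CPM, levels above the reference were thus not detectable there. Mmp19 at 17 dpa, at a ratio of -1.01, stayed past 2-fold under 7 of 13 other settings (to -0.51 at resolution 0.5), and Mmp14 under 11 of 13 (to -0.74). At 28 dpa Mmp19 stayed past it under 12 of 13 (to -0.81), and endothelial Mmp14 under 10 of 13 (to -0.47).

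Of the proteases around these genes, the ADAM and ADAMTS group was mostly lower in fibroblast-like cells. Of the genes tested in 4 lists (other MMP and TIMP genes, ADAM and ADAMTS proteases, activators with inhibitors and clearance receptors, and other matrix proteases), none was past 2-fold higher and 7 of 51 were lower at 12 dpa. At 17 dpa none was higher and 4 of 50 lower, and at 28 dpa 3 were higher and 16 lower of 51. Medians were -0.25, -0.17 and -0.32, beside -0.22, -0.04 and -0.14 over all genes tested, of which 9.1%, 1.94% and 8.75% were past 2-fold in either direction. The 12 dpa median was thus close to that of all genes. The 23 ADAM and ADAMTS proteases tested gave 4, 2 and 10 lower and none higher, with medians of -0.58, -0.24 and -0.93. The other matrix proteases, cathepsins among them, lay on the other side, with 5 of 7, 6 of 7 and 6 of 8 above 0 and medians of 0.15, 0.24 and 0.51. In tenocyte-like cells at 28 dpa the ADAM and ADAMTS list had 1 higher and 12 lower of 23, with a median of -1.08, where 9.81% of all genes tested were past 2-fold.

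Among single genes of those lists, Adam12, a membrane protease of activated mesenchymal cells, stood at 236, 130, 105 and 35.1 CPM in fibroblast-like cells at 0, 12, 17 and 28 dpa. The membrane-type Mmp16 stood at 73.4, 23.7, 30.9 and 12.0 CPM. Adamts3, which trims procollagen, stood at 43.2, 25.0, 26.5 and 6.86 CPM. These 3 were lowest at 28 dpa. Adamts19, with 76.7, 34.1, 60.0 and 28.4 CPM, was low at both 12 and 28 dpa, with overlapping intervals. The proteoglycan-cutting Adamts9 (52.6, 11.2, 27.2 and 12.9 CPM) was also low at both. Plau, the urokinase that generates plasmin (30.9, 8.25, 26.8 and 22.7 CPM), was lowest at 12 dpa.

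Genes past 2-fold higher at 28 dpa included Pcsk6 and Htra1. Pcsk6, a proprotein convertase, stood at 19.3, 24.2, 30.3 and 61.0 CPM. The secreted serine protease Htra1 stood at 273, 303, 441 and 566 CPM, higher in each later library.

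Cytokine and AP-1 genes can induce Mmp3 and Mmp13. In fibroblast-like cells at 12, 17 and 28 dpa, 0, 1 and 1 of 15 were past 2-fold higher and 3, 0 and 1 lower. Their medians were -0.70, 0.08 and -0.06. Of all genes tested in these cells, 9.1%, 1.94% and 8.75% were past 2-fold in either direction. The dissociation list had 3 of 14 lower at 12 dpa and 1 of 14 higher at 17 and at 28 dpa, with medians of -0.76, 0.51 and 0.11. At 12 dpa both lists thus lay below the median of all genes, in the library where Mmp3 was also low; their part in the Mmp3 value was not tested.

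Other members of the family marked other cells. Mmp8, the neutrophil collagenase, stood at 639, 43.4, 686 and 64.5 CPM in neutrophil-like cells, low in the libraries without cells of cluster 9. Mmp12 stood at 341, 259, 567 and 1063 CPM in cluster 1, highest at 28 dpa. Mmp15, a membrane-type enzyme, had its highest level in Schwann-like cells, at 96.5, 89.0, 87.3 and 54.6 CPM. Mmp7, Mmp20, Mmp21 and Mmp24 had at most 17 UMIs in any library. Mmp1a was not analysed here.

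Over 65 class-by-library sums, the genes whose log2 levels were most like each of the 10 followed the classes described above. Pearson's r with Mmp13 was 0.88 for Bglap2, 0.87 for Bglap and 0.87 for Ostn. With Mmp3 it was 0.86 for Pdgfra, 0.85 for Hoxd13 and 0.85 for Hpse2, and with Mmp2 it was 0.91 for Cthrc1, 0.89 for Pdgfra and 0.89 for Aebp1. Mmp11 was most like Ndn (0.88), Tbx18 (0.87) and Vstm4 (0.86), and Mmp9 like Acod1 (0.81), Pgd (0.79) and Cxcl3 (0.78). Mmp14 was most like P4hb (0.88), Kdelr1 (0.87) and Maged1 (0.86), and Mmp19 like Npc2 (0.89), Bdh2 (0.87) and Ctsa (0.86). Timp1 was most like Rcn3 (0.89), Kdelr2 (0.89) and Gpx7 (0.89), and Timp2 like Selenom (0.89), Fcgrt (0.86) and Aga (0.86). Timp3 was most like Syn3, the gene it lies in, at 0.94, then Cald1 and Prss23 at 0.93. These sums share 4 libraries and their depths, so the values describe likeness only.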

How the data were processed

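Single-cell RNA was measured in 4 libraries, 1 per group. The deposited matrices hold UMI counts per gene and cell, made with Cell Ranger 7.1.0 on mm10 per the submitters' processing notes; the strand setting is not given in the sources used here. A barcode was used if it had 500 or more genes, 1000 or more UMIs and no more than 10% of UMIs from mitochondrial genes. Doublets were removed by Scrublet score at 0.8% per 1000 barcodes, since its automatic cut marked 0.00951% to 4.30% of cells. Clustering (scanpy 1.11.5, igraph 0.11.9, Python 3.11.15; 2000 variable genes, 30 components, 15 neighbours, Leiden resolution 1) left out the 10 genes and every list gene. A cluster was named from markers in at least 25% of its cells; this naming rule was written after the markers were fixed. Classes needed 50 cells in a library and clusters 20. Only the 2-fold call was tested on simulated data, as Poisson counts based on unamputated fibroblast-like cells with no variation between libraries.

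With 1 library per group there is no test; values are CPM of summed counts with Poisson intervals. The genes and lists were chosen with earlier results of these data known. Named genes are the 10, the 5 largest and 5 smallest ratios of the pathway lists past 2-fold at 20 CPM or more, and the 3 most alike genes each, except 1 pathway gene not reported here; Mmp8, Mmp12, Mmp15 and genes in the splits by UMIs were named after their values were seen.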

Additional observations from a re-analysis of the deposited data

How the results depend on the processing

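Of 80 ratios recomputed under other filters, doublet removal, clustering, naming, pseudocounts and weighting, 50 kept their sign throughout, and of the 16 past 2-fold, 5 stayed past it in all. Past 2-fold for the whole class under every alternative that gave a value were Timp3 in pericyte-like cells at 28 dpa (1.18 to 1.97), Timp3 in osteoblast-like cells (1.59 to 2.31 at 17 dpa, 1.31 to 2.02 at 28 dpa), Mmp14 in macrophage-like cells at 28 dpa (-3.17 to -2.57) and Mmp9 in neutrophil-like cells at 12 dpa (-1.72 to -1.09). Within single clusters, which were no such alternative, Mmp9 was at -0.93 in cluster 19 and Mmp14 at -1.63 and -1.21 in clusters 2 and 27. Timp1 in fibroblast-like cells ranged from 0.54 to 1.62 at 12 dpa and from 0.42 to 1.19 at 28 dpa. Reversed were Mmp3 in fibroblast-like cells at 12 dpa with each cell named alone (0.14) and Mmp3 in tenocyte-like cells at 28 dpa at resolution 0.5 (-1.52). The genes past 2-fold in fibroblast-like cells at 12 dpa were 4 with looser filters or resolution 2, and 1 with doublets kept, resolution 0.5 or connective classes pooled. At 17 dpa they were 2 with looser filters or resolution 2, and 1 with doublets kept, each cell named alone or classes pooled. At 28 dpa they were 3 with looser filters, 4 at resolution 2, 2 with each cell named alone or classes pooled, and 0 with doublets kept, a mean over cells or clusters weighted equally, the last chosen after seeing the data. Pathway genes past 2-fold numbered 12 with classes pooled and 4 with a pseudocount of 5 CPM or a minimum of 20 CPM at 12 dpa, and 7 with looser filters, resolution 2 or each cell named alone and 2 with a minimum of 20 CPM at 17 dpa; the cause of these shifts was not tested. No paired analysis was possible because each group has 1 library. Depth limits values near a few CPM.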
